A study of Mus musculus with 3 samples.

Results

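The genes described here are 64 transporters of neurotransmitters and amino acids, out of 14806 genes with a probe set of their own on the arrays. They were chosen by name alone: every probe set whose annotation gives exactly 1 gene symbol, where that symbol belongs to the solute carrier families Slc1, Slc6, Slc7, Slc17, Slc18, Slc32, Slc36 or Slc38. Each of the 64 genes had 1 probe set: 5 in Slc1, 16 in Slc6, 15 in Slc7, 9 in Slc17, 3 in Slc18, 1 in Slc32, 4 in Slc36 and 11 in Slc38. The RNA came from the neocortex of 3 wild-type mice of the outbred CD1 stock at postnatal day 13, each animal on its own array, and the animals form 1 group with no treatment, mutant or other tissue to set them against. The results are therefore levels and differences between mice, called mouse 1, 2 and 3 after the labels. Slc1a2 and Slc1a3, which encode the chief glutamate carriers of cortical astrocytes, had no probe set with a single symbol and are not analysed here.

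Plasma membrane transporters of the Slc1 and Slc6 families use the sodium gradient to take glutamate, GABA, glycine and the monoamines back up from the extracellular space, which ends the signal and recycles the transmitter. Vesicular transporters of the Slc17, Slc18 and Slc32 families use the proton gradient of the synaptic vesicle to load it, and which of them a neuron carries largely sets which transmitter it releases. Slc7, Slc36 and Slc38 proteins move amino acids for metabolism and growth, and several Slc38 members carry the glutamine that astrocytes hand to neurons as a precursor of glutamate and GABA.

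All levels are log2 intensities. Probes differ in brightness for the same amount of RNA, so each gene is set against background and against itself in the other mice, never against another gene. The background limit of an array was the 95th percentile of 809 probe sets for chemosensory receptors (olfactory, vomeronasal and trace amine), which cortex is not known to use, and stood at 6.93, 6.79 and 6.77 in mice 1 to 3. Median intensities of the arrays were between 230.6 and 256.6. Each level rests on 3 arrays, and the precision of a single value was not measured. All 9 measured markers of neocortical excitatory neurons were above the limit on every array, among them Tbr1, a transcription factor of cortical projection neurons, at 11.43, 11.62 and 11.46. So were 6 of 6 striatal, 7 of 7 thalamic, 7 hippocampal and 5 of 6 choroid plexus markers, and 73.9% of all single-gene probe sets. These counts therefore do not tell neocortex from its neighbours. Another hippocampal marker, Dsp, was matched through a synonym to a different gene, Dspp, and is left out of the count.

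Of the 64 transporters, 50 were above the limit on all 3 arrays, or 78.1%, against 73.9% of all 14938 single-gene probe sets. Counts above the limit in the groups and lists below are to be read beside that 73.9%. Another 2 were above it on some arrays only and 12 on none. The median transporter had a mean level of 9.70, against 8.90 for the median single-gene probe set. By their smallest margin over the limit on any array, 28 transporters (43.8%) stood more than 3 log2 units clear of it, against 30.3% of all single-gene probe sets. A further 12 (18.8%, against 31.3%) stood 1 to 3 units above it and 10 (15.6%, against 12.3%) within 1 unit. By that smallest margin, the gene nearest to the limit on its upper side was Slc1a7, at 6.82 in mouse 3 against a limit of 6.77. The gene nearest on its lower side by the same measure was Slc6a2, at 6.80 in mouse 1 against 6.93.

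The promoters of the transporters differed in their content of CpG, the dinucleotide that is depleted where DNA is methylated in the germ line and kept in the CpG islands of widely used genes. RefSeq promoters (build GRCm38.p6, the 250 bases before and 50 after each listed start of a gene) were found for 45 of the 64. For genes with several listed starts, the CpG ratio below is the mean over them. The observed count of CpG divided by the count expected from the C and G content had a median of 0.588 in the 38 transporters above the limit. In the 7 not above it the median was 0.334, and all 7 lay between 0.174 and 0.597. Over all genes with a promoter the medians were 0.736 for the 8833 above the limit and 0.238 for the 2996 not above it, so the medians of the transporters differed in the same direction as those of other genes, by less. A ratio over 0.6 was found in 19 of the 38 transporters above the limit (50%), against 67.8% of all genes above it. The motif TATAAA, read on both strands, was in at least 1 listed promoter of 3 of 45 transporters (Slc7a1, Slc38a4 and Slc7a15), or 6.67%, against 13.2% of all genes. These 3 have 2, 3 and 2 listed starts, and each further start is another place where the motif can be found.

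**Figure D1:**
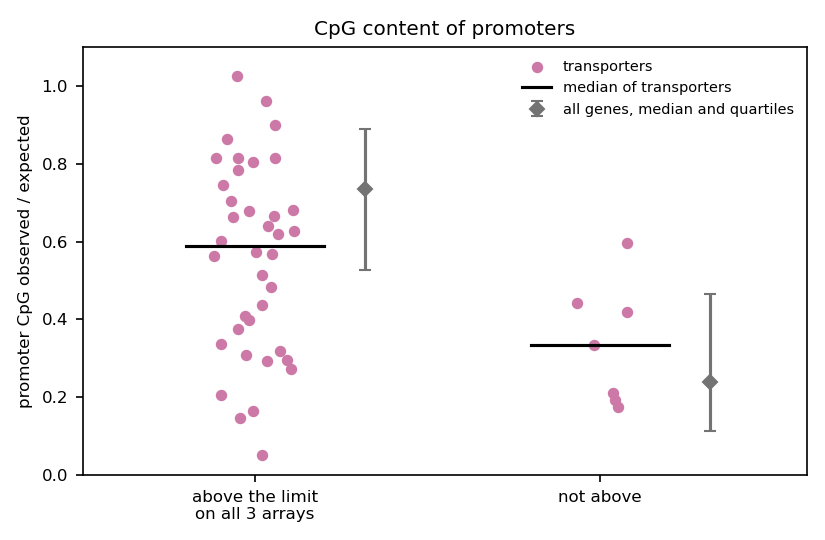
Observed over expected CpG (no unit) in the promoters of 45 transporters, as points with their median as a bar, for the 38 above the background limit on all 3 arrays and the 7 not above it. Grey diamonds with bars are the median and quartiles of all genes with a promoter; the transporter medians are 0.588 and 0.334, and the points above the limit run from 0.052 to 1.026.

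The 6 promoters printed here span that range and belong to genes with 1 listed start each. They are the main vesicular glutamate transporter of cortex (Slc17a7, chr7:45163671-45163920, plus strand), the vesicular GABA transporter (Slc32a1, chr2:158610508-158610757, plus strand), the dopamine transporter (Slc6a3, chr13:73536497-73536746, plus strand) and the transporters with the highest and the lowest ratio among the 45 (Slc38a2, chr15:96699729-96699978, minus strand, and Slc36a3, chr11:55151709-55151958, minus strand). The last belongs to a gene that was not above the limit (Slc6a14, chrX:21714650-21714899, plus strand). Each is the 250 bases before the start, 5′ to 3′ on the gene's strand in GRCm38.p6, with CpG in capitals: 9 of them in Slc17a7, 12 in Slc32a1, 16 in Slc6a3, 30 in Slc38a2, 1 in Slc36a3 and 4 in Slc6a14.
Slc17a7: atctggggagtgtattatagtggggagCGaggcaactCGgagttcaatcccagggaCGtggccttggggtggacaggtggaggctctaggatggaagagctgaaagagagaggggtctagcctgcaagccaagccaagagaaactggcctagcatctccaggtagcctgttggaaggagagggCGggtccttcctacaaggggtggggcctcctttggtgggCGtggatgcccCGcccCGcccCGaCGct
Slc32a1: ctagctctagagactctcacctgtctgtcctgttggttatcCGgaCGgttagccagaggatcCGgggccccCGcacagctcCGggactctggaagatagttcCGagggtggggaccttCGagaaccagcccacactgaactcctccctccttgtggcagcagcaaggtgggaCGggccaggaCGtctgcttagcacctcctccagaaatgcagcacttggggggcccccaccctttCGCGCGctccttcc
Slc6a3: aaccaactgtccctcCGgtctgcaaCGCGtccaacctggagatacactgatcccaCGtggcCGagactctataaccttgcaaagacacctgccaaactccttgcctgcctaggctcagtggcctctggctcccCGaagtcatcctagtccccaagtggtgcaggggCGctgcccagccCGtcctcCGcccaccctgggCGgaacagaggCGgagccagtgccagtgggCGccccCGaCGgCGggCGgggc
Slc38a2: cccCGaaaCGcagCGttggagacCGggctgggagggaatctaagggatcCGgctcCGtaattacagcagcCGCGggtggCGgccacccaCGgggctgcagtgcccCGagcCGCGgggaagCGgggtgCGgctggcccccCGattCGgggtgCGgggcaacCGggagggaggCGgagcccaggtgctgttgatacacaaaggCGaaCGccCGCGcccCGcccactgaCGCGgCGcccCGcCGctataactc
Slc36a3: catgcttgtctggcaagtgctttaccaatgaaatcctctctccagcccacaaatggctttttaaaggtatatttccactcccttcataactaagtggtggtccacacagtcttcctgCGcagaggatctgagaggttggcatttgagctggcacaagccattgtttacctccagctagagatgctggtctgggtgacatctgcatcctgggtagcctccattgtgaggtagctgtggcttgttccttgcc
Slc6a14: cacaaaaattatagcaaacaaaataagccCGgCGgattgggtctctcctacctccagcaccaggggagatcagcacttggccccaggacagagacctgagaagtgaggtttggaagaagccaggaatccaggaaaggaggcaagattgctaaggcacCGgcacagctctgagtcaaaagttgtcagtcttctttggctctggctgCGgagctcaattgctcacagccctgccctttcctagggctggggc
Slc36a3, with 1 CpG in its 250 bases, was above the limit in every mouse at 7.75, 7.24 and 7.27, within 1 unit of it. The part of CpG in the levels of these genes was not tested.

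Vesicular transporters of glutamate and GABA were all above the limit. Slc17a7, which loads glutamate in most cortical excitatory neurons, was at 12.90, 12.98 and 12.78 in mice 1 to 3. Slc17a6, its counterpart in thalamic and other subcortical neurons, was at 11.34, 11.11 and 11.19. Both were more than 4 units clear of the limit, and each differed by at most 1.17-fold between the highest and lowest mouse. All 7 measured thalamic markers were also above the limit, with summed intensities of 9105, 10193 and 9541, and their part in the level of Slc17a6 was not tested. In bulk tissue, fewer cells of a type and less RNA per cell cannot be told apart. Slc17a8, the third vesicular glutamate transporter, found in small populations of interneurons and in serotonergic and cholinergic cells, was at 8.39, 8.15 and 7.81. Slc32a1, which loads GABA and glycine into the vesicles of inhibitory neurons, was at 11.49, 11.78 and 11.65. Its lowest value was in mouse 1 and its highest in mouse 2, as in Slc18a2 below. Both are common on these arrays: mouse 1 gave the minimum for 53.8% of single-gene probe sets over the limit, mouse 2 the maximum for 59.8%. Relative to probe sets of like level, a scale described below, Slc32a1 deviated by -0.005, 0.023 and -0.015 in mice 1 to 3. On that scale the shared order was lost, with Slc32a1 lowest in mouse 3 and Slc18a2 highest there.

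Monoamine and acetylcholine transporters were measured in the same RNA, although the neurons that make most of their transcripts lie outside the neocortex. Slc18a2, the vesicular monoamine transporter of the brain, was at 9.68, 9.90 and 9.82, and Slc18a1, its counterpart in endocrine cells, was under the limit in every mouse at 5.92, 6.12 and 5.95. Slc18a3, the vesicular acetylcholine transporter, was at 8.06, 7.56 and 7.80, within 1 unit of the limit in mouse 2. The brain's and the endocrine form of the vesicular monoamine transporter thus fell on opposite sides of the limit. Slc6a3, the dopamine transporter, was at 10.13, 10.02 and 10.07. Slc6a4, the serotonin transporter, was at 9.57, 9.49 and 9.12. Slc6a2, the noradrenaline transporter, was at 6.80, 6.91 and 6.78, above the limit in mice 2 and 3 by little and under it in mouse 1. Of 9 measured markers of monoaminergic and cholinergic nuclei 8 were above the limit, among them Pitx3, a transcription factor of midbrain dopamine neurons, at 8.47, 8.55 and 8.33. Phox2a, a transcription factor of noradrenergic neurons, was under it at 6.51, 6.37 and 6.33. The summed intensities of the 9 were 3513, 3681 and 3545, none was at 0 on an array, and their part in the levels of these transporters was not tested.

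Among the enzymes of the same transmitters 10 of 12 were above the limit. Th, the rate-limiting enzyme of catecholamine synthesis, was at 10.17, 10.45 and 10.69. Tph2, which makes serotonin in brain neurons, was at 8.35, 8.01 and 8.06. Tph1, its counterpart in peripheral tissue and pineal gland, was above the limit in mouse 1 only, at 7.06, 5.60 and 5.33. Pnmt, which makes adrenaline, was under it in every mouse. Hnmt, which inactivates histamine, was at 10.25, 11.12 and 10.91, and was the enzyme here with an unadjusted p under 0.05 in the spread test described below. Chat, which makes acetylcholine and shares its locus with Slc18a3, was at 7.14, 7.26 and 7.33, within 1 unit of the limit in every mouse. It was lowest in mouse 1, as were 53.8% of all single-gene probe sets above the limit, while Slc18a3 was highest there. Neither Chat nor Slc18a3 had an unadjusted p under 0.05 in the spread test.

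Plasma membrane glutamate carriers were above the limit where measured. Slc1a1, the neuronal glutamate and cysteine carrier, was at 11.37, 11.27 and 11.22. Slc1a6, known for Purkinje cells of the cerebellum, was at 9.68, 9.56 and 9.75. Slc1a7, known for the retina, was at 7.50, 7.20 and 6.82. The first 2 were more than 2.5 units clear of the limit in every mouse, while the third lay within 1 unit of it in all mice. The related neutral amino acid exchangers were both highest in mouse 1: Slc1a4, which carries serine, alanine and cysteine, was at 10.77, 10.31 and 10.24, and Slc1a5, a glutamine exchanger of dividing cells, at 7.52, 7.45 and 6.99.

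Carriers of GABA, betaine, taurine and creatine were all above the limit, 5 of 5. Slc6a11, the astrocytic GABA transporter, was at 12.04, 11.65 and 11.74. Slc6a13, a GABA transporter that in mouse brain is known mainly from the leptomeninges and blood vessels, was at 9.39, 10.00 and 9.80. These GABA carriers ran in opposite orders, Slc6a11 highest in mouse 1 and Slc6a13 lowest there. Slc6a12, the betaine and GABA transporter, was at 7.11, 7.45 and 7.45, within 1 unit of the limit and again lowest in mouse 1. Meningeal and fibroblast markers were above the limit in 12 of 12 cases, 11 of them highest in mouse 2 (as 59.8% of all single-gene probe sets above the limit were, and 10 of 11 interneuron markers), with summed intensities of 17458, 25182 and 20070 and none at 0. Endothelial and mural markers, 11 of 11 above the limit, were highest in mouse 1 in 6 cases and in mouse 2 in 5, with summed intensities of 11469, 12543 and 10940. Mouse 2 also had the highest Slc6a13, and the part of meninges or vessels in that order was not tested. Slc6a6, the taurine transporter, was at 10.96, 10.72 and 10.68, and Slc6a8, the creatine transporter, at 10.37, 10.08 and 10.17. Both were highest in mouse 1, with 1.22-fold between the highest and lowest mouse.

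Glycine and proline carriers held the transporter with the widest spread. Slc6a5, which refills glycinergic terminals and is known mainly from hindbrain and spinal cord, was at 8.95, 7.73 and 8.43. Slc6a9, the glycine transporter of glia and some excitatory terminals, was at 10.79, 10.65 and 10.81. Slc6a7, the proline transporter of glutamatergic terminals, was at 11.42, 11.13 and 11.20. All 3 were lowest in mouse 2, as were 24% of the transporters above the limit and 11.5% of all single-gene probe sets above it. Relative to probe sets of like level these shares were 56% and 31.5%, so this order is not particular to the 3. For Slc6a5 the gap between mouse 1 and mouse 2 was 2.33-fold, and for Slc6a9 and Slc6a7 at most 1.22-fold.

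Enzymes that make and recycle these transmitters were above the limit in 8 of 8 measured cases for glutamate, glutamine and GABA. Over all single-gene probe sets 73.9% were above it. Glul, the astrocytic glutamine synthetase, was at 11.77, 12.19 and 12.25, and Abat, which breaks GABA down, at 11.72, 11.42 and 11.53. Abat was thus highest in mouse 1 and Glul lowest there. For serine, glycine and D-serine 6 of 8 were above the limit. Srr, which makes D-serine, was at 11.03, 11.23 and 11.04. Gldc, a subunit of the glycine cleavage system, was at 8.96, 9.32 and 9.12. Gcsh, another subunit of that system, was under the limit in every mouse at 3.00, 3.41 and 3.53. The proton pump that powers vesicle loading had 10 of 10 measured subunits above the limit, with a median level of 12.51. Of these 10, 8 were lowest in mouse 1, as were 53.8% of all single-gene probe sets above the limit, among them Atp6v1d at 11.90, 12.52 and 12.29. None of the genes of these lists above the limit passed limma's test for excess spread described below, and none had an unadjusted p under 0.05.

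**Figure D2:**
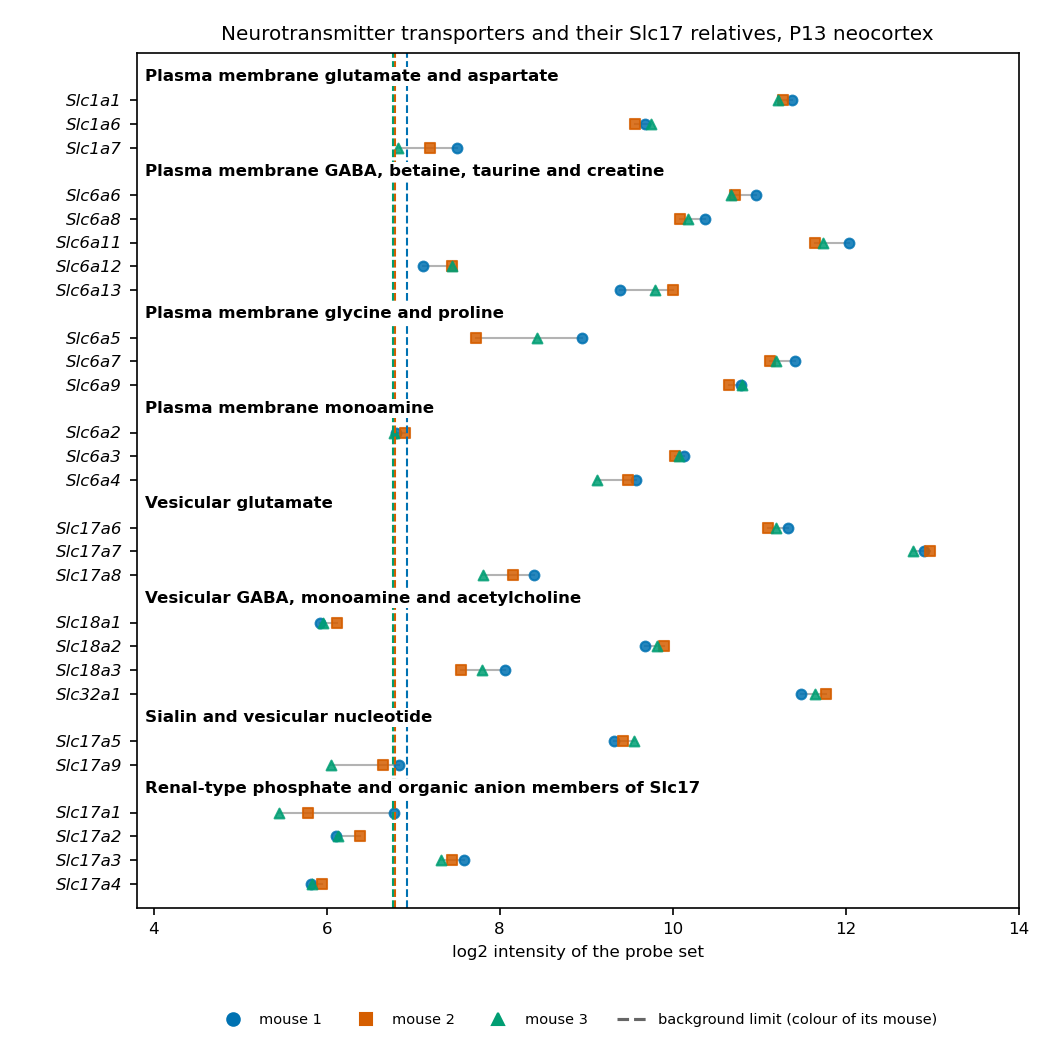
Log2 intensity of neurotransmitter transporters and their Slc17 relatives in each mouse (circle, square and triangle for mice 1, 2 and 3), grouped by role, with dashed lines at the background limits of 6.93, 6.79 and 6.77. Slc17a7, Slc6a11 and Slc32a1 lie far to the right of the limits in every mouse, and Slc6a5 has the longest line between mice among those above the limits.

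The remaining Slc17 genes lay on both sides of the limit. Slc17a5, the lysosomal sialic acid exporter, was at 9.33, 9.43 and 9.56. Slc17a9, the vesicular nucleotide transporter, was under the limit in every mouse at 6.84, 6.65 and 6.05, by under 0.1 in mouse 1. In the cluster of phosphate and organic anion transporters known from kidney and liver, Slc17a3 was above it by little at 7.59, 7.45 and 7.32. Slc17a1, Slc17a2 and Slc17a4 were under it in every mouse, with values from 5.45 to 6.78. Being above the limit does not by itself show use in neocortex: of 8 measured markers of kidney and intestinal epithelium 4 were above it, among them Aqp2, the water channel of the collecting duct, at 7.73, 7.66 and 7.70.

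Transporters that lie close together in the genome did not always share a call. In the RefSeq gene order of GRCm38, 11 pairs of transporters had at most 5 other protein-coding genes between them, and 9 of these pairs had none. The pairs join 17 of the 64 transporters, 13 of them above the limit. In 7 pairs both genes had the same call and in 4 they had different ones. As 50 of the 64 were above the limit, most pairs of transporters share a call wherever they lie. These counts therefore show no part for position, which was not tested. Slc17a3 lies between Slc17a2 and Slc17a1, which were both under the limit, and Slc6a18 lies between Slc6a3 and Slc6a19, which were both above it. Runs with a shared call were Slc38a1, Slc38a2 and Slc38a4, then Slc36a3, Slc36a2 and Slc36a1, and the pair Slc6a13 and Slc6a12, all above the limit.

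Neutral amino acid carriers of Slc6 split by the tissue they are known from. Slc6a17, a carrier of synaptic vesicles, was at 12.62, 12.63 and 12.61, and Slc6a15, a neuronal carrier of branched-chain amino acids and proline, at 10.43, 10.45 and 10.61. Slc6a14, known from lung and gut, was under the limit in every mouse at 5.46, 5.31 and 5.22, and so was Slc6a18, known from kidney, at 5.53, 4.43 and 5.40. An exception was Slc6a19, the neutral amino acid carrier of kidney and intestine, which was above the limit at 9.02, 9.10 and 8.84. Cltrn, the partner it needs at the surface of kidney cells, was under the limit in every mouse at 5.16, 4.80 and 4.78.

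Cationic amino acid transporters, which carry arginine and lysine, were above the limit in 5 of 5 cases. Slc7a1, the widely used member, was at 10.56, 10.04 and 9.91. Slc7a2 was at 8.94, 8.60 and 8.55, Slc7a3, the member best known from brain, at 10.36, 10.56 and 10.26, and Slc7a4, whose substrate is unsettled, at 10.33, 10.27 and 10.17. In the deposited values all 5 were lowest in mouse 3, as were 34.7% of all single-gene probe sets above the limit. All but Slc7a3 were highest in mouse 1, as were 25.1% of all. Relative to probe sets of like level, Slc7a2 and Slc7a4 were lowest in mouse 2 instead.

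Light chains of the heteromeric exchangers, which reach the surface only in complex with a heavy chain, were above the limit in 6 of 10 cases. The common heavy chain Slc3a2 was at 12.24, 12.28 and 12.36, and the kidney and gut heavy chain Slc3a1 was under the limit at 5.55, 5.65 and 5.33. Slc7a9, the partner of Slc3a1, was under the limit in every mouse. Slc7a5, Slc7a6, Slc7a7, Slc7a8, Slc7a10 and Slc7a11, which pair with Slc3a2, were above it, as were 73.9% of all single-gene probe sets. With 1 gene beside Slc3a1, these calls do not show whether light chains follow their partners. Slc7a5, the large neutral amino acid exchanger of brain endothelium and neurons, was at 11.82, 11.98 and 11.86. Slc7a6, which exchanges cationic for neutral amino acids, was at 9.84, 9.92 and 9.96. Slc7a7, a related exchanger of epithelia and macrophages, was at 7.77, 7.54 and 7.87, and Slc7a8, a second large neutral amino acid exchanger, at 10.31, 10.55 and 10.32. Between mice, 5 of the 6 were lowest in mouse 1 in the deposited values, as were 53.8% of all single-gene probe sets above the limit, with at most 1.25-fold up to the highest mouse. Relative to probe sets of like level, 1 of the 6 was. Slc7a11, the cystine and glutamate exchanger, had a mean of 10.47 ± 0.16 (SD, n = 3), and Slc7a10, an exchanger of D-serine and other small neutral amino acids in brain, had 10.54 ± 0.15. Slc7a12, Slc7a13 and Slc7a15, not set against a heavy chain here, were under the limit with means of 5.23, 5.04 and 6.28.

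Proton-coupled transporters of the Slc36 family were above the limit in 4 of 4 cases. Slc36a1, a lysosomal exporter of small amino acids, was at 10.65, 10.74 and 10.63, and Slc36a4 at 10.75, 10.77 and 10.77. Slc36a2 and Slc36a3 were nearer to the limit, at 8.01, 8.44 and 8.36 and at 7.75, 7.24 and 7.27. Slc36a2 was lowest in mouse 1 and Slc36a3, its neighbour, highest there.

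Sodium-coupled neutral amino acid transporters of the Slc38 family, which include the carriers of the glutamine cycle, were above the limit in 9 of 11 cases. Slc38a1, a neuronal glutamine carrier, was at 11.55, 11.40 and 11.39. Slc38a2, a widely used carrier that cells raise when starved of amino acids, was at 10.76, 10.74 and 10.75. Slc38a3, the astrocytic carrier that releases glutamine, was at 11.72, 11.91 and 11.88. All 3 were more than 3.5 units clear of the limit. Slc38a4, known mainly from liver and placenta, was at 7.80, 8.34 and 8.14. The other 5 above the limit, among them the lysosomal arginine sensor Slc38a9 (8.65 ± 0.15), had means between 7.99 and 10.74. Slc38a8 was above the limit in mouse 1 only, at 7.02, 6.58 and 6.48, and Slc38a11 in no mouse, with a mean of 4.87.

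**Figure D3:**
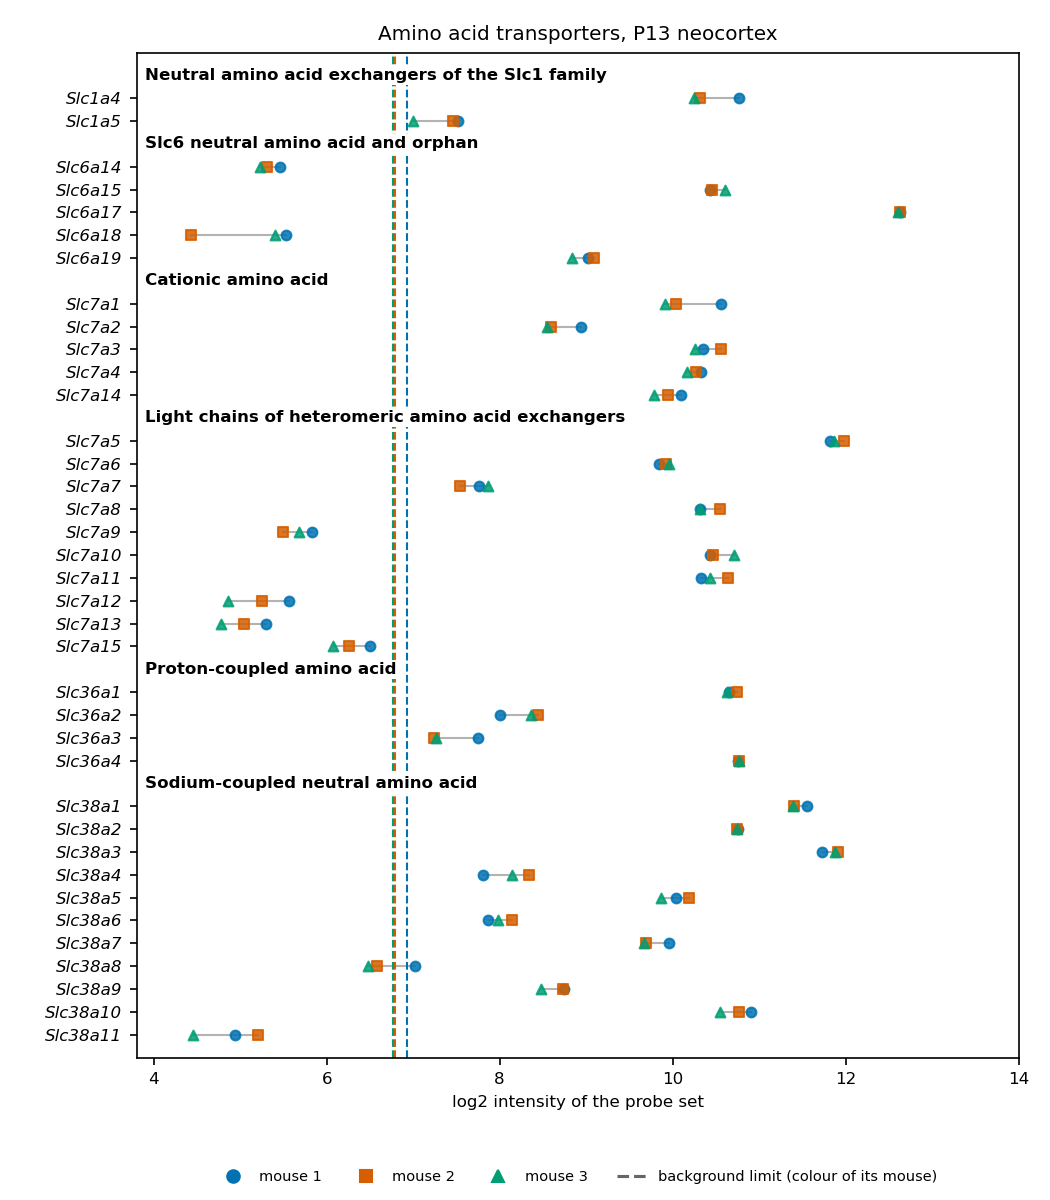
Log2 intensity of amino acid transporters in each mouse (circle, square and triangle for mice 1, 2 and 3), grouped by role, with dashed lines at the background limits of the arrays. The 5 cationic transporters all lie right of the limits with mouse 3 lowest in these deposited values, while the 10 light chains split into 6 above and 4 below.

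The median SD of the 50 above the limit was 0.15, with quartiles of 0.10 and 0.21, against 0.16 over all single-gene probe sets above the limit, with quartiles of 0.10 and 0.23. Relative to probe sets of like level these medians were 0.18 and 0.13, so which was smaller depended on the scaling. An SD under 0.1 was found in 14 of the 50 and an SD over 0.3 in 4 (Slc6a5, Slc7a1, Slc1a7 and Slc6a13). In 10 of them the highest mouse was more than 1.4-fold above the lowest. Among the steadiest in the deposited values were Slc6a17, Slc36a4 and Slc38a2, with 1.01-fold between the highest and lowest mouse each. Relative to probe sets of like level they varied more. In mice 1 to 3 Slc6a17 deviated by 0.164, -0.093 and -0.068, Slc36a4 by 0.094, -0.103 and 0.010, and Slc38a2 by 0.112, -0.113 and 0.002.

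A test for excess spread asked whether a probe set varied between the mice by more than others of like level, with limma's robust variance model over the 13649 probe sets above the limit. None of the 50 transporters passed at a Benjamini-Hochberg adjusted p under 0.05, where 0.0659% of all probe sets tested did (9 in number). At an unadjusted p under 0.05 there were 2 of 50, or 4%, against 5.27% of all tested. After quantile normalization there were 5 of 50, or 10%, against 4.83%, and again none passed after adjustment. The 2 were Slc6a5 (SD 0.61, adjusted p = 0.501 in limma's model) and Slc7a1 (SD 0.34, adjusted p = 0.923 in limma's model). Slc6a5 was lower in mouse 2 than in both other mice, and its SD was 0.50 without mouse 1, 0.37 without mouse 2 and 0.86 without mouse 3. Slc7a1 was higher in mouse 1 than in both others, and its SD without mouse 1 was 0.09. On simulated data for this test the model recovered 56% of 100 genes given an SD 4 times larger, so smaller differences would mostly pass unseen.

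**Figure D4:**
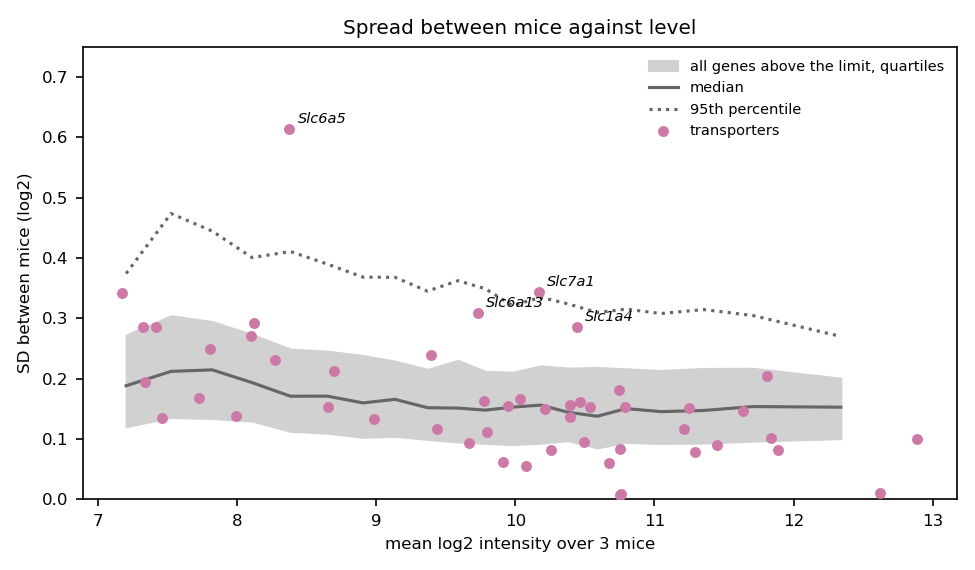
SD between the 3 mice (log2) against mean log2 intensity for the 50 transporters above the limit (points), with the median, quartiles and 95th percentile of all single-gene probe sets in 20 bins of level. The transporters scatter about the median of other genes, and 2 of them, Slc6a5 and Slc7a1, lie above the 95th percentile of their bin.

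The order of the mice differed between the transporters and the array as a whole. Of the 50 transporters above the limit 25 were highest in mouse 1 (50%), where 25.1% of all single-gene probe sets above the limit were. In mouse 2, 17 were highest (34%, against 59.8% of all), and in mouse 3, 8 were (16%, against 15.0%). Correspondingly, 16 were lowest in mouse 1 (32%, against 53.8%), 12 in mouse 2 (24%, against 11.5%) and 22 in mouse 3 (44%, against 34.7%). The median transporter lay 0.04 above its 3-mouse mean in mouse 1, where the median single-gene probe set lay 0.07 below it. In mouse 2 it lay 0.01 above, against 0.10 above for the median probe set, and in mouse 3 it lay 0.04 below, against 0.02 below.

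The arrays differ in brightness in a way that depends on level, so the order was also taken relative to the median deviation of probe sets of like level in 20 bins. On that scale 34 of 50 transporters were highest in mouse 1 (68%, against 40.4% of all), and the median transporter stood 0.13 above the median for its level there. With each array centred on its median, 23 of 50 were highest in mouse 1, against 23.0% of all, and after quantile normalization 34, against 40.1%. By role, mouse 1 was highest in the deposited values and relative to probe sets of like level alike in 4 of 5 cationic transporters, 2 of 2 Slc1 exchangers and 3 of 5 carriers of GABA, betaine, taurine and creatine. Of the 6 light chains above the limit it was highest in 0 in the deposited values and in 1, Slc7a5, relative to probe sets of like level. The labels give no difference between the 3 animals.

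**Figure D5:**
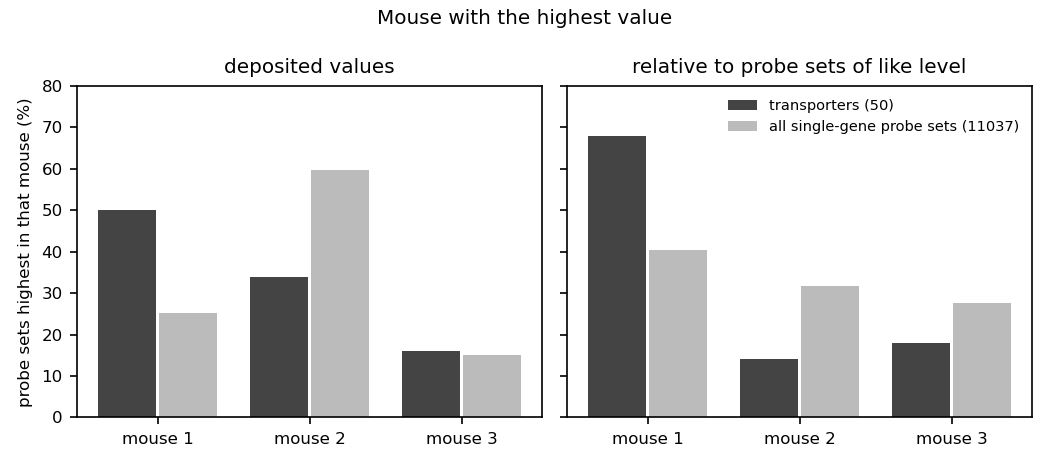
Percentage of probe sets with their highest value in mouse 1, 2 or 3, for the 50 transporters (dark bars) and all 11037 single-gene probe sets (light bars) above the limit, in the deposited values (left) and relative to probe sets of like level (right). Mouse 1 holds 50% and 68% of the transporters, against 25.1% and 40.4% of all.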

How the data were processed

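Per the labels' protocols, Trizol-extracted total RNA was biotin-labelled by an Affymetrix whole-transcript assay, with 1 array per mouse. The deposited table holds linear intensities per probe set. The submitters' processing notes name Affymetrix Power Tools and mm8, while the steps of background correction, normalization and probe summary were not stated there. Log2 of each intensity was taken with no offset. Of 23172 probe sets, 14938 had 1 symbol, 989 several (given no gene) and 7245 are unnamed here. All 64 members were found by Entrez ID in RefSeq (GRCm38.p6), with no symbol changed. The spread test used limma 3.58.1 in R 4.3.3 (fitFDistRobustly, trend on the mean, prior degrees of freedom 22.2) with Benjamini-Hochberg adjustment over 13649 probe sets, and was tested on simulated data: it recovered 56% of 100 genes with a 4 times and 88% of 100 with an 8 times larger SD, with 7 false calls. For lists, a gene's brightest probe set was used. Members, lists and tests were chosen with earlier results of these data known, and values were given for all transmitter carriers and up to 4 genes of each other role in numerical order, besides those near the limit or with a spread p under 0.05. Slc7a10, Slc7a11, Slc17a1, Slc38a9 and the members at the edges of a range were named after their values were seen.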

Additional observations from a re-analysis of the deposited data

How the results depend on the processing

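Of 64 transporters, 50 were above the limit, and the count was between 39 (limit at the 99th percentile of the receptor probe sets) and 52 (90th percentile) under the other settings. It was 50 to 51 without any 1 mouse, and 50 with a background of 951 receptor probe sets, an alternative chosen after seeing the data. No transporter passed the spread test in limma's model under any of the 10 alternatives, with the lowest adjusted p between 0.320 and 0.972, and between 1 and 5 had an unadjusted p under 0.05, the 5 (10%, against 4.83% of all tested) after quantile normalization. The median SD was 0.15 and ran from 0.09 without mouse 1 to 0.14 without mouse 3. It was 0.18 after quantile normalization, against 0.13 over all single-gene probe sets, and 0.18 relative to probe sets of like level, against 0.13, where in the deposited values it was 0.15 against 0.16: the side on which the transporters lie turns with the scaling. The count lowest in mouse 1, 16 of 50, was 7 after quantile normalization and 7 relative to probe sets of like level, and 19 to 22 without mouse 2 or mouse 3. An offset of 16 before taking logs moved the mean level of 12 of 64 transporters by more than their SD, and quantile normalization moved none. Leaving out 1 of 3 mice cannot move a mean by more than the SD of the 3 values. Those settings therefore do not bear on how steady the levels are. No paired analysis was possible because the mice form a single group. The 10 transporters within 1 unit of the limit rest on a background taken from other probes.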
